A study of Oryza sativa Japonica Group and Oryza sativa Indica Group with 16 samples.

Results

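The step from moderate to severe drought was followed in the flag leaf of IRAT109, an upland japonica rice that resists drought, by setting 2 arrays of stage D3 against 2 arrays of stage D2. These are 4 of the 16 arrays of the series, and they were chosen by genotype and stage alone, with every one of the 57381 probe sets tested. The stages were set on IRAT109 and on ZS97 (Zhenshan 97), a drought-sensitive paddy indica rice, in plants dried in PVC pipes at booting, with 2 biological replicates for each of the 8 groups. D0 was the watered state and D1 the lightest drought. At D2 the relative water content of the leaf was 74 to 78% and the leaves were partly rolled, and at D3 it was 65 to 69% and all leaves were completely rolled. RNA came from the middle of fully expanded flag leaf blades, so that fewer cells of a type and less RNA per cell cannot be told apart. Leaf water state and the day of sampling along the drying course cannot be told apart either.

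A leaf that dries makes abscisic acid (ABA), which closes stomata and switches on genes for dehydrins and other late embryogenesis abundant (LEA) proteins, hydrophilic proteins that accumulate in drying tissue and in maturing seeds. Cytokinin acts on leaf age and growth in the opposite sense, and its activity is read from type-A response regulators, genes that cytokinin switches on directly and whose products dampen its signal. A leaf under prolonged stress also takes down chlorophyll and recovers carbon from lipids, the latter through the glyoxylate cycle.

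Levels are given as the deposited intensities in arbitrary units, which are comparable between arrays for 1 probe set and not between probe sets. A difference in level between the genotypes was not tested, and sequence differences under the probes could change the reading of 1 genotype. Changes are on the scale of log2 of the intensity plus 16, which understates the change of dim probe sets, and each carries the standard error (SE) of the fit. A probe set was called when its limma p, adjusted over all probe sets by the method of Benjamini and Hochberg, was under 0.05 and its fold was over 2. On this scale the replicate arrays correlated at 0.998 for D2 and 0.997 for D3, and arrays of the 2 stages at 0.993. Of the leaf blade markers, 4 of 10 could be matched, to 9 probe sets, and 7 of these were over 1000 on at least 1 of the 4 arrays. Their summed intensity was 34673 and 34721 at D2 and 25588 and 26291 at D3, and none of the 9 was called. Markers of anther and pollen were under 50 on all 4 arrays for 6 of 7 probe sets, those of seed storage for 13 of 16 and those of the young panicle for 9 of 11. The exceptions included GLB1, a seed globulin, with means of 667 and 593, and MADS16, a floral factor, with means of 725 and 716. Vascular markers (5 of 6 matched) summed to 1899 and 1857 at D2 and 2160 and 2243 at D3, with SUT1, a sucrose transporter, at 0.40 (adjusted p = 0.0020). Root markers (3 of 8 matched) summed to 1034 and 929 at D2 and 1436 and 1316 at D3, with NAAT1, an enzyme of phytosiderophore synthesis, at 0.54 (adjusted p = 0.00054). Leaf blade sums were thus lower at D3 and vascular and root sums higher, but a sum is led by its brightest probe sets. The other root markers, LSI1 and LSI2, stood at 0.05 and −0.09. The vascular probe sets besides SUT1 lay between −0.15 (LSI6) and 0.27 (SWEET11). The part of tissue content in the results below was not tested. No marker of any of these tissues was called, and no guard cell marker could be matched.

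From D2 to D3 in IRAT109, 360 probe sets were called, which is 0.627% of those tested. Of these, 268 rose (0.467%) and 92 fell (0.16%). The median change of the 268 was 1.27 and that of the 92 was −1.22, and 32 of the risers and 7 of the fallers changed by over 4-fold. In all 360, the D3 arrays both lay on 1 side of the D2 arrays, which the call itself makes likely and which adds no support. The step moved many more probe sets by small amounts, since 3085 (5.38%) were higher and 2970 (5.18%) lower at an adjusted p under 0.05 whatever the fold. These shares, called and at any fold, are set beside the list counts below. The lists hold only probe sets with a named gene, and so may cover only part of a family. Of the 3193 probe sets with a named gene, 45 rose and 15 fell, larger shares than over all probe sets. The share over all probe sets thus understates the background of a list. The median over all probe sets was 0.00, and the middle 90% of changes lay between −0.30 and 0.30. Risers went from a median intensity of 201 to 594 and fallers from 333 to 145. Only 1 riser was under 16 on both D2 arrays, and 3 fallers were under 16 on both D3 arrays.

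**Figure D1:**
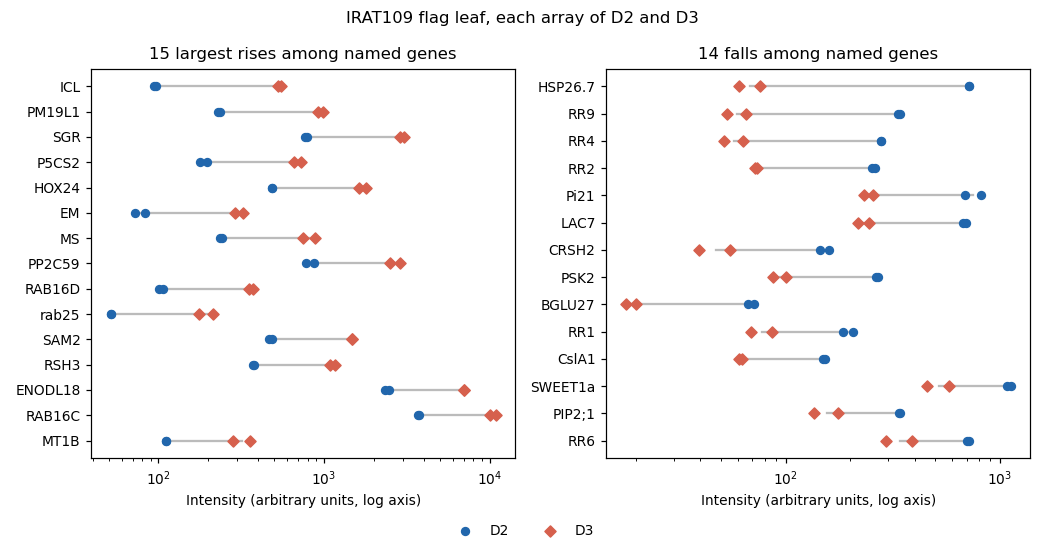
Intensity on each of the 2 D2 arrays (circles) and 2 D3 arrays (diamonds) of IRAT109, on log axes, for the 15 largest rises and all 14 falls of called genes with a name. Grey lines join the stage means. Rows were taken only where the 2 D3 arrays lie on 1 side of the 2 D2 arrays. The step is widest for HSP26.7, at 8.73-fold.

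The clearest group among the falls was the type-A response regulators of cytokinin. RR9 read 336 and 341 on the D2 arrays and 53.5 and 65.5 on the D3 arrays, a 4.71-fold fall (log2 change −2.23 ± 0.09 SE, adjusted p = 2.4e-08). RR4 read 277 and 279 at D2 against 51.5 and 63.2 at D3, a 4.02-fold fall (−2.01 ± 0.09, adjusted p = 4.3e-08). RR2 went from 260 and 253 to 72.2 and 73.5 (−1.62 ± 0.09, adjusted p = 1.7e-07). These genes were taken only where the arrays of the 2 stages did not overlap, so the separation of the stages adds no support. RR1 went from 206 and 186 to 69.2 and 86.7 (−1.18 ± 0.10, adjusted p = 9.1e-06). RR6 went from 703 and 714 to 295 and 388 (−1.03 ± 0.12, adjusted p = 9.2e-05), and its call rested on the first D3 array, without which the change was −0.84. With 64 in place of 16 added before log2, RR1 and RR6 were under 2-fold, at −0.87 and −0.94. The RR4 probe set is of a type that can detect more than 1 transcript, and near-identical response regulators cannot be told apart by it.

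These 5 were the only calls among the 36 probe sets of the list of cytokinin response and metabolism, which had 0 called up and a median change of −0.02, beside 0.16% called down over all probe sets. With no fold threshold, 10 of the 36 were lower and 3 higher, beside 5.18% and 5.38%. RR5, another type-A gene, was dim at both stages (log2 change −0.02). AHP2, a phosphotransfer protein that carries the cytokinin signal, had the highest intensity of the uncalled members, at 2917 and 2745 against 3246 and 3105 (0.17 ± 0.06, adjusted p = 0.12). RRB1, a type-B response regulator that activates cytokinin genes, read 1455 and 1554 against 1654 and 1625 (0.12 ± 0.07, adjusted p = 0.41). The falls thus lay in the response regulators and in none of the listed genes for the receptors, phosphotransfer proteins, activation or breakdown of the hormone, as far as calls go.

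HSP26.7, a small heat shock protein of the chloroplast, fell the most of all probe sets. It read 718 and 716 at D2 and 60.4 and 76.3 at D3 (−3.13 ± 0.10, adjusted p = 5.5e-09). In IRAT109 it stood at 14.2 and 17.1 at D0 and 158 and 144 at D1, so that D2 was its high point. Among the 68 probe sets of the heat shock list, 1 rose and 1 fell, beside 0.467% and 0.16% over all probe sets, and the median was 0.11. At any fold 16 were higher and 4 lower, beside 5.38% and 5.18%. The riser was HSFA6B, a heat stress transcription factor, at 474 and 490 against 976 and 1089 (1.07 ± 0.07, adjusted p = 6.0e-07, or 0.99 without the second D3 array). HSP81-3 and HSP81-2, members of the HSP90 family, were the uncalled members of highest intensity, with changes of 0.02 ± 0.06 and −0.05 ± 0.05.

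Other falls were of single genes. LAC7, a laccase, which oxidizes phenolics in the cell wall, went from 674 and 694 to 246 and 219, a 2.82-fold fall (adjusted p = 8.2e-08). CslA1, a synthase of wall mannans, went from 152 and 149 to 62.8 and 60.3 (−1.10 ± 0.07, adjusted p = 9.5e-07). BGLU27, a beta-glucosidase, went from 66.8 and 71.2 to a mean of 19.0 (−1.28 ± 0.10, adjusted p = 3.6e-06). Within the 125 probe sets of the cell wall list, 2 fell and 1 rose, beside 0.16% and 0.467% over all probe sets. The list median was 0.03. The riser was BGLU22, another beta-glucosidase, at 60.2 and 70.2 against 161 and 163 (1.14 ± 0.09, adjusted p = 3.3e-06). UAM1 and EXLA1, a mutase that feeds arabinose into wall polymers and an expansin-like protein, were the brightest uncalled members, at 0.36 ± 0.06 and 0.18 ± 0.08. The calls of CslA1, BGLU27 and BGLU22 were lost with 64 added, at −0.77, −0.68 and 0.81. Pi21, a proline-rich protein whose loss gives resistance to blast, went from 819 and 685 to 255 and 233 (−1.56 ± 0.13, adjusted p = 6.9e-06), and its other probe set was also called down. PSK2, a precursor of the peptide hormone phytosulfokine, went from 263 and 271 to 87.1 and 101 (−1.37 ± 0.11, adjusted p = 6.8e-06).

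Sugar transport held a fall. SWEET1a, of the SWEET family of sugar transporters, read 1081 and 1125 at D2 and 455 and 581 at D3 (−1.08 ± 0.11, adjusted p = 4.0e-05), and −0.91 without the first D3 array. Its list of 64 probe sets had 1 fall and 1 rise, beside 0.16% and 0.467% over all probe sets, and a median of 0.01. The rise was NIN1, a neutral invertase, at 336 and 386 against 779 and 705 (1.01 ± 0.09, adjusted p = 7.9e-06). This rise was close to the threshold, and was 0.91 without the first D2 array and 0.94 without the first D3 array. PIP2;1, a plasma membrane aquaporin, had probe sets that disagreed. The called one read 337 and 343 against 135 and 176 (−1.06 ± 0.14, adjusted p = 0.00020, and −0.89 without the first D3 array), whereas the other two probe sets had changes of 0.27 and 0.41, so that no direction can be given for the gene. Of the 31 aquaporin probe sets no other was called. PIP2;7, a leaf aquaporin of high intensity, was 8769 and 8388 against 5463 and 5265 (−0.68 ± 0.08, adjusted p = 7.4e-05), and PIP1;2 was 12630 and 11853 against 12461 and 11962 (0.00 ± 0.05).

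Enzymes of 1 signal moved in opposite directions. RSH3 and CRSH2 make the alarmone ppGpp, a nucleotide that bacteria and chloroplasts use to slow gene expression, and CRSH2 is activated by calcium. RSH3 read 370 and 377 at D2 and 1173 and 1091 at D3 (1.56 ± 0.08, adjusted p = 8.2e-08). CRSH2 read 159 and 144 at D2 and 39.5 and 55.1 at D3 (−1.41 ± 0.11, adjusted p = 5.3e-06). With 64 added before log2, CRSH2 was at −0.96, under the threshold.

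The dehydrins and other LEA proteins held the largest share of risers among the lists with more than 3 probe sets. Of 13 probe sets for 9 genes, 6 rose and 0 fell, beside 0.467% and 0.16% over all probe sets, with a median change of 0.89 against 0.00 over all probe sets, and 10 of the 13 were higher at any fold. PM19L1, an AWPM-19-like membrane protein that ABA induces, went from 229 and 234 to 924 and 984 (1.97 ± 0.09, adjusted p = 7.2e-08). EM, a group 1 LEA protein of seeds, went from 82.5 and 72.2 to 290 and 323 (1.79 ± 0.16, adjusted p = 1.2e-05). RAB16D, a dehydrin, went from 107 and 100 to 355 and 371 (1.67 ± 0.06, adjusted p = 1.9e-08). The dehydrins rab25 and RAB16C followed. For rab25 the D2 arrays both read 51.4 and the D3 arrays read 176 and 215 (1.64 ± 0.11, adjusted p = 1.5e-06). RAB16C went from 3678 and 3762 to 10925 and 10009 (1.49 ± 0.06, adjusted p = 2.5e-08).

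RAB16B, the remaining riser, went from 7035 and 7096 to 15162 and 15196, a 2.15-fold rise (adjusted p = 1.1e-06). RAB21, the dehydrin also known as RAB16A, read 24245 and 24120 at D2 and 32813 and 33585 at D3 (0.46 ± 0.06, adjusted p = 0.00033), and the last of these values was the highest on any of the 16 arrays. LEA19 read 5157 and 5142 at D2 and 10348 and 8772 at D3 (0.89 ± 0.08, adjusted p = 1.6e-05), under 2-fold except without the second D3 array, where it passed the threshold. The remaining uncalled members were second probe sets or LIP9, a dehydrin with a change of 0.81 on its bright probe set.

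**Figure D2:**
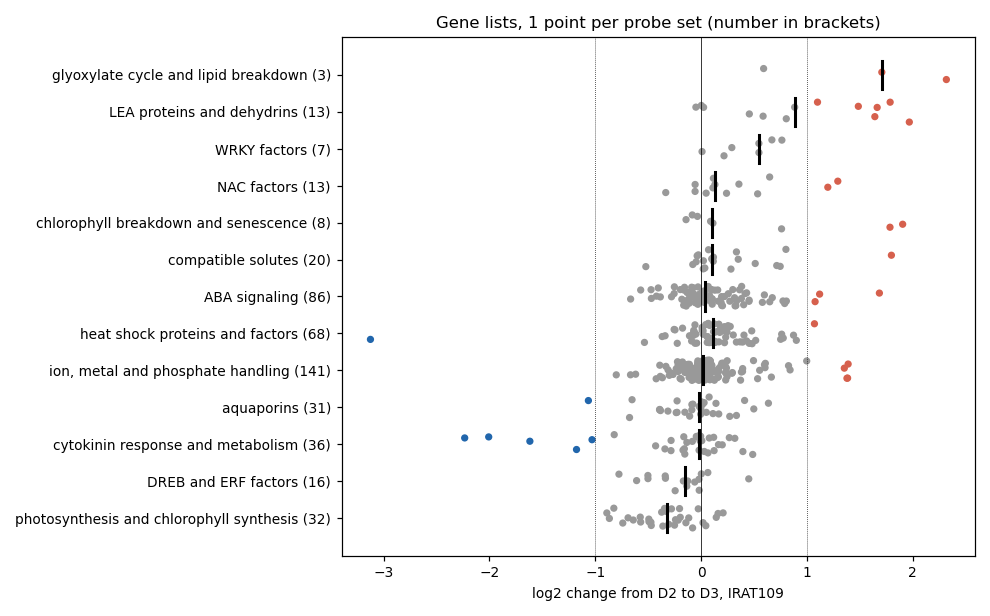
Change from D2 to D3 in IRAT109 on the log2 scale, 1 point per probe set, for 13 gene lists with the number of probe sets in brackets. Orange points were called up, blue points called down and grey points not called. Black bars are list medians and dotted lines mark 2-fold. Calls in the LEA list lie to the right, those in the cytokinin list to the left, and the photosynthesis list has no call with a median of −0.32.

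Of the 86 probe sets for ABA signaling, 3 rose and 0 fell, beside 0.467% and 0.16% over all probe sets, and the median was 0.04. At any fold 23 were higher and 9 lower, beside 5.38% and 5.18%. PP2C59, a protein phosphatase 2C, went from 782 and 874 to 2513 and 2894 (1.69 ± 0.14, adjusted p = 5.2e-06). PP2C51, of the same family, went from 763 and 777 to 1648 and 1741 (1.12 ± 0.08, adjusted p = 2.0e-06), and its second probe set was called up as well. The ABA receptor PYL11 read 4120 and 4109 against 4327 and 4535 (0.11 ± 0.05, adjusted p = 0.32), and PP2C09 read 3432 and 3263 against 3720 and 4101 (0.22 ± 0.07, adjusted p = 0.088). None of the 4 probe sets for ABA synthesis and breakdown was called. Among them ZEP, zeaxanthin epoxidase, which makes a precursor of ABA, read 353 and 342 against 591 and 612 (0.76 ± 0.06, adjusted p = 5.4e-06).

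Transcription factors that rose came from several families. HOX24 and HOX22 are homeodomain-leucine zipper factors of drought and ABA responses. HOX24 went from 486 and 484 to 1632 and 1805 (1.79 ± 0.14, adjusted p = 4.1e-06) and HOX22 from 2215 and 2151 to 4662 and 4508 (1.06 ± 0.07, adjusted p = 8.2e-07). They were the only calls among the 52 probe sets of their list, whose median was −0.02, and the bright members Hox16 and Hox4 stood at −0.35 ± 0.07 and −0.39 ± 0.07. NAC5, a NAC factor of stress and ABA responses, went from 845 and 795 to 1821 and 2269 (1.29 ± 0.13, adjusted p = 3.7e-05), with a second of its probe sets called up, and supplied both calls among the 13 NAC probe sets (median 0.13). NAC6, a related factor, read 2960 and 2664 against 3968 and 4190 (0.54 ± 0.09, adjusted p = 0.0015). MYB4 went from 90.8 and 99.5 to 203 and 217 (1.02 ± 0.10, adjusted p = 2.5e-05), and was 0.97 without the first D2 array and 0.98 without the second D3 array. It was the only call among 20 MYB probe sets. Over all probe sets 0.467% were called up, the share to set beside the counts of each list here.

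None of the 7 WRKY probe sets that could be matched by gene name was called, although 4 were higher at any fold, beside 5.38% over all probe sets. Their median was 0.55. WRKY71, a factor of defence and hormone responses, read 517 and 480 against 822 and 894 (0.76 ± 0.07, adjusted p = 1.6e-05), and WRKY9 read 527 and 594 against 695 and 613 (0.22 ± 0.09, adjusted p = 0.17). Among 16 probe sets for DREB and ERF factors, which bind the dehydration-responsive element or the ethylene element, none was called. At any fold 6 were lower and 1 higher, beside 5.18% and 5.38% over all probe sets, and the median was −0.15. DREB1B went the other way from the LEA genes, at 228 and 220 on the D2 arrays and 120 and 129 on the D3 arrays (−0.78 ± 0.17, adjusted p = 0.011).

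The enzymes of the glyoxylate cycle gave the largest rise of a named gene. ICL, isocitrate lyase, the first enzyme particular to that cycle, read 96.7 and 93.8 at D2 and 549 and 530 at D3 (2.32 ± 0.11, adjusted p = 8.2e-08), a 4.99-fold rise. MS, malate synthase, the second such enzyme, went from 235 and 241 to 751 and 881 (1.71 ± 0.09, adjusted p = 1.8e-07). The list had only 1 other probe set, MFP, the multifunctional protein of peroxisomal fatty acid oxidation, at 1642 and 1656 against 2523 and 2464 (0.59 ± 0.08, adjusted p = 0.00034).

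Chlorophyll breakdown moved through SGR, STAY-GREEN, which takes the magnesium from chlorophyll as its breakdown starts. SGR read 766 and 792 at D2 and 2873 and 3054 at D3 (1.91 ± 0.08, adjusted p = 2.4e-08), and its second probe set rose by 1.79. These were the only calls among the 8 probe sets of the list, whose median was 0.10. RCCR1, red chlorophyll catabolite reductase, read 2436 and 2121 against 4110 and 3634 (0.76 ± 0.09, adjusted p = 0.00017), and NYC1, chlorophyll b reductase, 1771 and 1820 against 2014 and 1817 (0.09 ± 0.08, adjusted p = 0.65).

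The list of photosynthesis and chlorophyll synthesis had no call in 32 probe sets but was the one with the lowest median, −0.32. At any fold 19 of the 32 were lower and 0 higher, beside 5.18% lower over all probe sets. The list shares members with the leaf blade markers, whose summed intensity was lower at D3 as given above, and the part of leaf cell content in these values was not tested. RBCS, the small subunit of Rubisco, read 13346 and 13478 against 10055 and 10671 (−0.37 ± 0.05, adjusted p = 0.00047). CAB2R, a chlorophyll a/b-binding protein, read 13991 and 13667 against 10728 and 11051 (−0.34 ± 0.07, adjusted p = 0.0082). The list of nitrogen transport and assimilation had no call in 29 probe sets, 4 higher and 5 lower at any fold and a median of 0.04. Its uncalled members of highest intensity were enzymes of the chloroplast. GLN2, glutamine synthetase, read 4363 and 4498 against 3150 and 3070 (−0.51 ± 0.07, adjusted p = 0.00032), and Fd-GOGAT, ferredoxin-dependent glutamate synthase, read 3450 and 3627 against 2583 and 2454 (−0.49 ± 0.07, adjusted p = 0.00040).

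P5CS2, an enzyme that starts the synthesis of the osmolyte proline, went from 178 and 197 to 660 and 726 (1.80 ± 0.08, adjusted p = 2.8e-08). It was the only call among 20 probe sets for compatible solutes (median 0.11), beside 0.467% called up over all probe sets. The 3 other probe sets of P5CS2 were not called. P5CS1, its paralog, read 1675 and 1757 against 2871 and 2916 (0.75 ± 0.06, adjusted p = 3.9e-06), and OAT, ornithine aminotransferase, 1021 and 886 against 1628 and 1716 (0.80 ± 0.09, adjusted p = 5.5e-05).

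The list of ion, metal and phosphate handling held 4 rises and 0 falls among 141 probe sets. Over all probe sets the shares were 0.467% and 0.16%, and the list median was 0.02. MT1B and MT4A are metallothioneins, small cysteine-rich proteins that bind metals. MT1B went from 111 on both D2 arrays to 281 and 357 (1.39 ± 0.13, adjusted p = 2.0e-05), and MT4A from 205 and 190 to 456 and 617 (1.35 ± 0.13, adjusted p = 1.9e-05). COPT1, a copper transporter, went from 249 and 265 to 660 and 737 (1.39 ± 0.10, adjusted p = 1.4e-06). SAT1 went from 304 and 305 to 797 and 841 (1.38 ± 0.10, adjusted p = 1.8e-06). The metallothioneins of highest intensity did not follow, with MT-2 at 0.19 ± 0.05 and MT-I-2c at 0.02 ± 0.07.

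Further rises were of single enzymes or surface proteins. SAM2, S-adenosylmethionine synthase, which makes the methyl donor used also for ethylene, went from 464 and 482 to 1474 and 1472 (1.61 ± 0.08, adjusted p = 8.2e-08). ENODL18, an early nodulin-like protein, went from 2352 and 2458 to 7028 and 7044 (1.54 ± 0.10, adjusted p = 1.1e-06). LTP-2, a lipid transfer protein, went from 1849 and 1817 to 4515 and 4059 (1.22 ± 0.13, adjusted p = 3.8e-05). It was the only call among 11 probe sets for wax and cutin, and GRXS5, a glutaredoxin, at 620 and 610 against 1318 and 1433 (1.14 ± 0.08, adjusted p = 1.8e-06), was the only one among 84 for antioxidant enzymes.

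No probe set was called in the lists of cell cycle and kinesins (112), calcium sensors and kinases (118), flowering time and MADS factors (77), auxin (74), jasmonate (46), pathogenesis-related genes (46), autophagy and proteolysis (43), gibberellin, brassinosteroid and ethylene (32), diterpenoid phytoalexins (22), or carotenoid and isoprenoid entry (13). With 0.627% of all probe sets called, a count of 0 in lists of these sizes is near the overall share. Among the 3193 probe sets with a named gene the called share was larger, with 45 up and 15 down. The counts of 0 were not tested against either share and are no result about the lists. Their medians lay between −0.09 and 0.06. In the auxin list 15 were lower and 4 higher at any fold, beside 5.18% and 5.38% over all probe sets. Among the 15 was IAA17, a repressor of auxin response, at 8701 and 8514 against 5816 and 5606 (−0.59 ± 0.06, adjusted p = 3.0e-05).

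Most probe sets that moved carry no gene name. Of the 268 risers, 216 had 1 gene symbol and 45 a named gene, and of the 92 fallers, 69 and 15. The largest rise was that of LOC4331521, which was chosen after its values were seen, like the other genes of this paragraph. LOC4331521 read 27 and 32.3 at D2 and 351 and 417 at D3 (3.13 ± 0.10, adjusted p = 5.5e-09), and LOC4345287 read 97.6 and 93.5 against 866 and 980 (3.07 ± 0.12, adjusted p = 2.4e-08). After HSP26.7, the largest falls were those of LOC4339650, at 1561 and 1496 against 189 and 283 (−2.64 ± 0.14, adjusted p = 1.8e-07), and LOC4350979, at 1019 and 1045 against 142 and 190 (−2.54 ± 0.12, adjusted p = 7.3e-08).

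The same step in ZS97 moved fewer probe sets past the threshold, 81 up (0.141%) and 50 down (0.0871%), with 1130 (1.97%) higher and 1165 (2.03%) lower at any fold. The 2 steps share no array. Of the 268 IRAT109 risers, 27 were also called up in ZS97, which is 10.1% of the risers and 33.3% of the ZS97 rises, and 1 was called down. Of the 92 fallers, 1 was called down in ZS97, an unnamed probe set, and 2 were called up. The median ZS97 change was 0.29 for the risers and −0.09 for the fallers.

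The difference between the 2 steps was tested in the same fit as an interaction term, which uses the arrays of both. In 291 probe sets (0.507%) the change was higher in IRAT109 and in 116 (0.202%) higher in ZS97. All 5 response regulators were in the second set. RR4 changed by −0.25 in ZS97, from 170 and 148 to 134 and 127, a difference of −1.76 (adjusted p = 7.5e-06). RR9 changed by −0.63, from 109 and 115 to 68.4 and 65.3, a difference of −1.61 (adjusted p = 1.4e-05). At D2 both genes read lower in ZS97 than in IRAT109, and at D3 RR9 read about the same in both. LAC7, Pi21, CRSH2, BGLU27 and CslA1 were also in the second set, with differences of −2.06, −1.53, −1.27, −1.22 and −1.12.

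**Figure D3:**
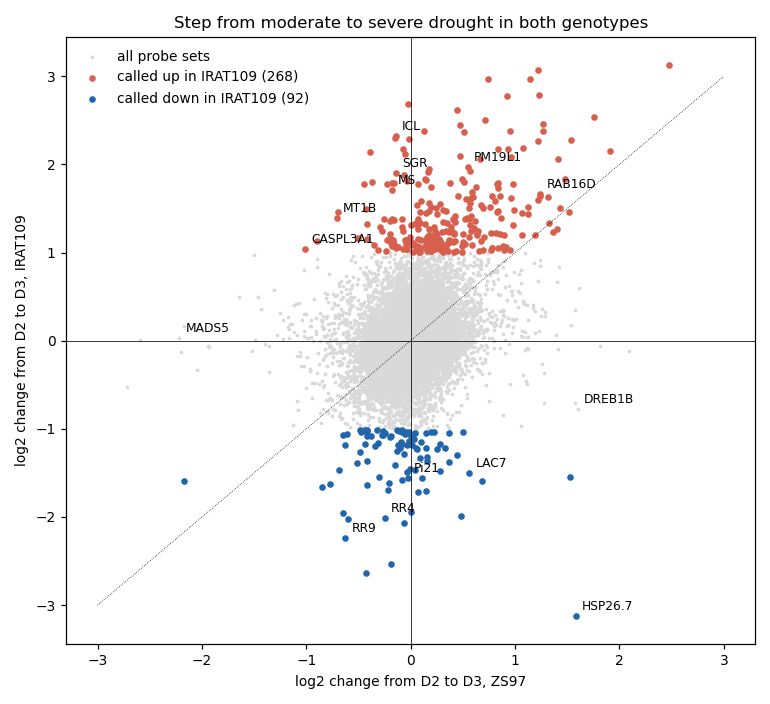
Change from D2 to D3 on the log2 scale in IRAT109 (vertical axis) against ZS97 (horizontal axis) for all probe sets, with those called up in IRAT109 in orange and those called down in blue. The dotted line marks equal change. HSP26.7 lies at −3.13 in IRAT109 and 1.58 in ZS97, while ICL, SGR and MS lie near 0 in ZS97.

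A set of 3 probe sets was called in opposite directions in the 2 genotypes. HSP26.7 rose in ZS97 from 125 and 102 to 374 and 367 (1.58, adjusted p = 3.1e-06), and the difference of −4.71 was the largest of any probe set named here (adjusted p = 7.2e-09). LOC4347709, named because it is 1 of these 3, read 242 and 245 against 70.0 and 75.7 in IRAT109 and rose by 1.53 in ZS97. CASPL3A1, a CASP-like membrane protein, went from 29.6 and 36.5 to 80.1 and 89.5 in IRAT109 (1.04 ± 0.14, adjusted p = 0.00030) and from 458 and 371 to 185 and 209 in ZS97. Its IRAT109 call was lost without the first D2 array (0.94) or the second D3 array (0.97). DREB1B, uncalled in IRAT109, rose in ZS97 from 126 and 120 to 425 and 385 (1.60, adjusted p = 0.00022), a difference of −2.38. MADS5, a floral factor, was at background in IRAT109, with 9.80 and 11.3 against 9.90 and 12.2, and fell in ZS97 from 119 and 156 to 17.2 and 16.2, so that its difference of 2.24 came from ZS97 alone.

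For the enzymes of carbon recovery and for SGR the difference between the genotypes was called as well. ICL stood at 6108 and 5737 in ZS97 at D2 and 5507 and 5237 at D3 (−0.14), a difference of 2.46 (adjusted p = 3.6e-06). MS stood at 2912 and 2542 and then 2446 and 2352, a difference of 1.89 (adjusted p = 5.9e-06). SGR stood at 7190 and 7625 and then 6581 and 6891, a difference of 2.04 (adjusted p = 9.3e-07). All 3 thus read higher in ZS97 than in IRAT109 at both stages, and in ZS97 had reached those readings by D2. The difference in level between the genotypes was not tested. MT1B was at 1681 and 1524 in ZS97 at D2 and 980 and 965 at D3, a change of −0.71 there (adjusted p = 0.0093, not called), so that its difference of 2.10 came from both genotypes. COPT1, MT4A, RSH3 and P5CS2 had differences of 1.64, 1.56, 1.38 and 1.29. SAT1 was between 9.70 and 15.2 on all 8 arrays of ZS97, and its difference was 1.31.

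In the LEA list the median difference between the genotypes was 0.42. At any fold 7 of its 13 probe sets had a higher change in IRAT109 and 0 a lower one, beside 1610 and 1088 of the 57381 probe sets. Of the 6 risers, PM19L1 was in the interaction calls, at 0.55 in ZS97 and a difference of 1.42 (adjusted p = 4.8e-05). RAB16D rose in both, in ZS97 from 2373 and 2318 to 5651 and 5478 (1.24, adjusted p = 4.8e-07), and the difference of 0.42 was under the fold threshold (adjusted p = 0.015). RAB16C changed by 0.99 in ZS97, EM by 0.84 and rab25 by 0.85. In the photosynthesis list 12 of 32 probe sets were lower in ZS97 at any fold, beside 2.03% over all probe sets. Its median there was −0.19, and no interaction was called. Of the WRKY list, 5 of 7 had a higher change in IRAT109 at any fold and 0 a lower one, with WRKY71 at 0.12 in ZS97 and a difference of 0.65 (adjusted p = 0.0021).

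**Figure D4:**
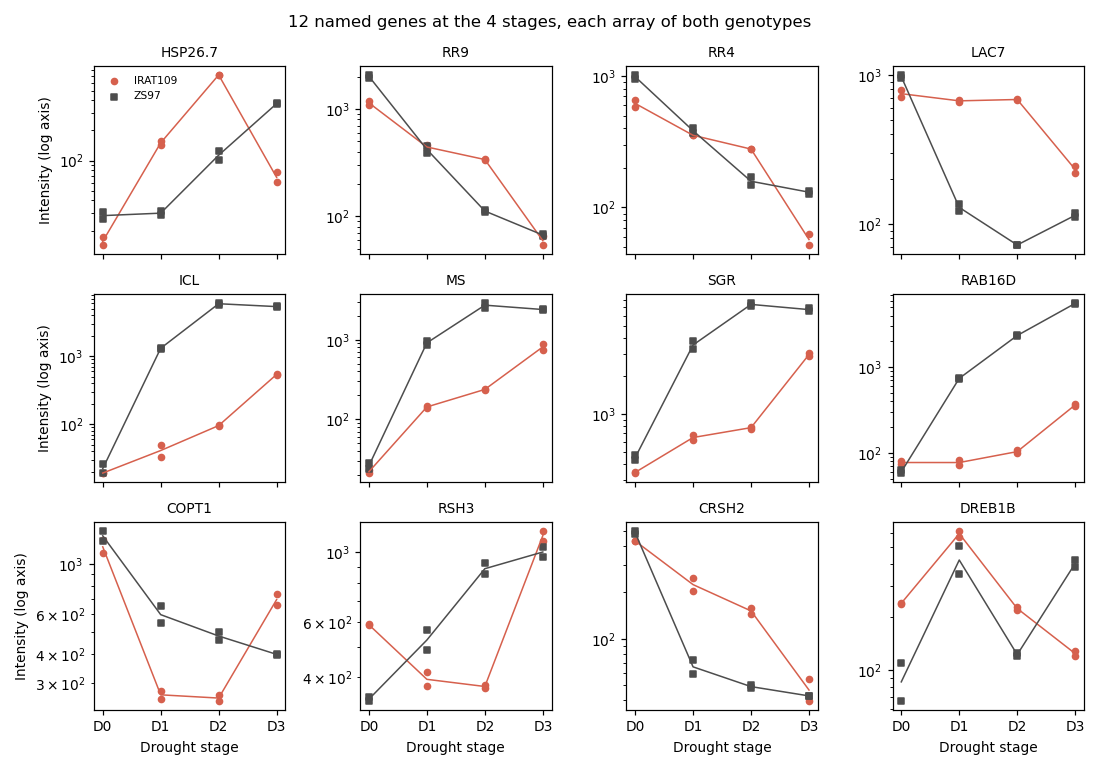
Intensity of 12 named genes on every array at stages D0 to D3, in IRAT109 (orange circles) and ZS97 (grey squares), on log axes that differ between panels, with lines through the stage means. HSP26.7 peaks at D2 in IRAT109 and is highest at D3 in ZS97. ICL, MS, SGR and RAB16D read higher in ZS97 than in IRAT109 from D1 on.

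The step was next set beside the first step of drought, D1 against D0, which uses none of its arrays. In IRAT109 the first step called 1649 probe sets up (2.87%) and 1940 down (3.38%). Of the 268 later risers, 119 (44.4%) had already risen there, 33 (12.3%) had fallen and 116 were not called. The 119 are 7.22% of the rises of the first step. ENODL18 (5.80), LTP-2 (4.29), HOX22 (3.97), PP2C51 (3.50), HOX24 (3.09), SAT1 (2.79), PM19L1 (2.76) and HSFA6B (2.63) were among those that rose at both steps. COPT1 had fallen by 2.10 on the log2 scale at the first step, from 1115 and 1271 to 277 and 255, and NAC5, MT4A and BGLU22 had fallen by 1.07, 1.03 and 1.06. RAB16D, SAM2, RSH3, GRXS5 and NIN1 had not been called at the first step, with changes of 0.00, −0.20, −0.56, −0.02 and −0.12.

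Of the 92 later fallers, 23 (25.0%) had risen at the first step, 17 (18.5%) had fallen and 52 were not called. HSP26.7 (2.40) and PSK2 (1.64) were among the first, and RR9 (−1.34), CslA1 (−1.44) and Pi21 (−1.18) among the second. LAC7 (−0.16), RR2 (−0.12), RR1 (−0.19) and RR6 (0.03) were not called at the first step.

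**Figure D5:**
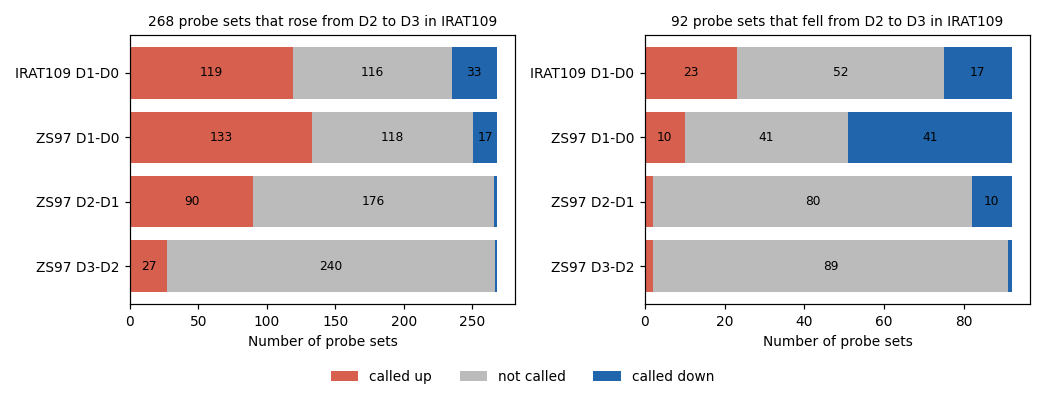
Numbers of the 268 probe sets that rose and the 92 that fell from D2 to D3 in IRAT109 by their call in 4 contrasts that use none of the same arrays. Bars are split into called up (orange), not called (grey) and called down (blue). The share called up among the 268 is greatest at the first step of ZS97, with 133, and least at its last, with 27. Over all probe sets these 2 steps called 2.47% and 0.141% up, so the counts also follow the size of each step.

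Many probe sets of the IRAT109 step were also called in ZS97 at milder drought. Its first step called 1419 probe sets up (2.47%) and 1705 down (2.97%), and its second, D2 against D1, 265 up (0.462%) and 146 down (0.254%). Of the 268 IRAT109 risers, 133 (49.6%) rose at the first step of ZS97 and 90 (33.6%) at the second. From D2 to D3 it was 27 (10.1%), at a step that called only 0.141% of all probe sets up. The 133 are 9.37% of the rises of the first step, the 90 are 34.0% of those of the second and the 27 are 33.3% of those of the last. For the size of the step, the overlap with the last was thus close to that with the second. Of the 92 fallers, 41 (44.6%) fell at the first step of ZS97 and 10 (10.9%) at the second, where they are 6.85% of the falls. The first step of IRAT109 itself had called 119 (44.4%) of the same risers up and 17 (18.5%) of the same fallers down. These counts compare calls and do not test a difference in timing. The second step of ZS97 shares arrays with its first and with its step from D2 to D3, and D1 of ZS97 was the group with the most probe sets over 2-fold apart between replicates, 39 against 4 and 7 for D2 and D3 of IRAT109. Without either of these D1 arrays, the 133 became 133 or 136, the 90 became 101 or 85, the 41 became 44 or 41 and the 10 became 9 or 12.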

How the data were processed

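The values used are intensities on a linear scale, 1 per probe set and array, as deposited by the authors from 16 Affymetrix Rice Genome Arrays. The submitters' processing notes name MAS5 with no version, and the study's methods name the robust multiarray average. Sorted values differ between arrays, so the probe set values were not themselves quantile normalized. Normalization of the probes before they were summarized would not show in this check, so it does not settle which method was used. Of 57381 probe sets, 123 are controls, and all were kept. Trimmed array means were 228 to 246, and 27.9 to 29.5% of values per array were under 16. The number of arrays limits the precision.

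Values were analysed as log2(intensity + 16) with limma 3.58.1 in R 4.3.3, as 8 group means over 16 arrays, with 8 residual and 4.28 prior degrees of freedom and a median SE of 0.080 for the step. A call needed a Benjamini-Hochberg adjusted p under 0.05 over all probe sets and a fold over 2. The fit was tested on simulated data. Replicate numbers did not pair the samples (correlation of deviations −0.07 in IRAT109 and 0.07 in ZS97).

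Probe sets were named through GEO's platform annotation and RefSeq synonyms. Of these, 22436 had 1 symbol, 95 had several and 3193 had a named gene. Suffixes _s and _x mark probes that can match several transcripts. Named are the 15 largest rises and falls of called genes that carry a name and whose arrays do not overlap, the 6 largest interactions each way, up to 4 called members of each list, and its 2 uncalled members of highest intensity, with the brightest called probe set standing for a gene. The 31 gene lists, the members and the tests were chosen with earlier results of these data known. Alternatives covered the added constant, scaling, a filter, the model, the call rule and left-out arrays. Coordinates were not used here.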

Additional observations from a re-analysis of the deposited data

Results flagged for a closer look

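A test of the difference in the step between IRAT109 and ZS97 was passed, with a fold over 2, by 31 of the genes considered for naming. Some of these genes were chosen for the size of this difference, so their number is no support for it. Over all 57381 probe sets 407 (0.709%) passed. The values below are the log2 change from D2 to D3 in IRAT109 minus that in ZS97. The difference was above 0 for ICL (2.46), MADS5 (2.24), MT1B (2.10), CASPL3A1 (2.05), SGR (2.04), MS (1.89), COPT1 (1.64), MT4A (1.56), PM19L1 (1.42), HOX24 (1.41), RSH3 (1.38), SAT1 (1.31), P5CS2 (1.29), Chia2a (1.17), BGLU22 (1.16), PP2C59 (1.096), SAM2 (1.07), RCCR1 (1.07) and NAC5 (1.07). Chia2a, a chitinase, is uncalled in both genotypes, at 0.59 in IRAT109 and −0.58 in ZS97. The difference was below 0 for RR1 (−1.096), CslA1 (−1.12), BGLU27 (−1.22), RR6 (−1.25), CRSH2 (−1.27), RR2 (−1.41), Pi21 (−1.53), RR9 (−1.61), RR4 (−1.76), LAC7 (−2.06), DREB1B (−2.38) and HSP26.7 (−4.71). For BGLU27 and Pi21, ZS97 read under 50 at both stages, and SAT1 read under 16 there. No group holds enough samples for a search for outlying arrays.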

How the results depend on the processing

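With the constant of 1 added before log2, falls in IRAT109 numbered 164 and interactions higher in ZS97 200. With 64, the counts fell to 177 rises and 44 falls in IRAT109, 41 and 21 in ZS97, and 161 and 55 interactions. Dropping the fold threshold gave 3085 and 2970, 1130 and 1165, and 1610 and 1088; 1.5-fold gave 965 and 626, 283 and 281, and 950 and 528; 4-fold gave 32 and 7, 2 and 7, and 25 and 12. With 1 probe set per gene, IRAT109 falls were 61, ZS97 rises 38 and interactions higher in ZS97 75, since fewer probe sets were tested. Quantile normalization, median centring, the filter at 50, the trend and unadjusted p stayed within 1.5 times. So did the rank products named by the methods, and fits to IRAT109 or to 4 arrays alone. Rank products and unadjusted p called the same 268 and 92. Both kept the fold over 2 on the same values, so these equal counts add no support. The replicate block gave 268 and 92, 80 and 50, and 289 and 115, and changed no call of a named gene. Leaving out 1 array gave 233 to 317 rises and 88 to 134 falls in IRAT109, 73 to 85 and 43 to 53 in ZS97, and 255 to 356 and 99 to 159 interactions; 224 of the 268 and 74 of the 92 were kept at the least. Leaving out a D1 array of ZS97, chosen after seeing the data, gave 133 to 136, 85 to 101, 41 to 44 and 9 to 12. Named genes were checked under 13 of the alternatives. They were not checked under the other call rules, rank products, 1 probe set per gene or without ZS97 arrays. Of 42 named called genes, 30 kept the call under all 13 and none reversed. With 64 added, BGLU22, CASPL3A1, MYB4, NIN1, RR6, PIP2;1, CslA1, RR1, BGLU27 and CRSH2 lost it, and NIN1 also with quantile normalization. With 2 arrays per group, changes under 2-fold in dim probe sets are the least certain.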
